A study of Mus musculus with 20 samples.

Results

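The miRNAs described here are the 9 mature forms of miR-21a, miR-146a, miR-146b, miR-155, miR-142a and miR-223 that were chosen by name: mmu-miR-21a-5p, mmu-miR-21a-3p, mmu-miR-146a-5p, mmu-miR-146b-5p, mmu-miR-146b-3p, mmu-miR-155-5p, mmu-miR-142a-3p, mmu-miR-142a-5p and mmu-miR-223-3p, written below without the species prefix. All 9 of 9 were found among the 1481 features of the series. They were sequenced as small RNA from mouse primary neurons, taken from cortices at embryonic day 15 and cultured for 7 days. The wild-type neurons and the neurons that lacked ciRS-7 (Cdr1as, a circular RNA abundant in brain) carry the same strain label, C57BL/6N-Cdr1asem1Nikr. Each genotype was held for 12 h either in normoxia (5% CO2, 37 °C, medium with 25 mM D-glucose and 0.2 mM sodium pyruvate) or in oxygen and glucose deprivation (OGD; 37 °C, 5% CO2, 1% O2, without added glucose and pyruvate), a dish model of ischaemia. Each of the 4 groups held 5 libraries. The labels do not say whether these came from separate embryos or cultures, so p-values measure the spread between these libraries, which may be technical. Small RNA libraries do not measure ciRS-7 itself, so the genotypes rest on the labels.

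A miRNA guides a silencing complex to messenger RNAs that pair with its seed, the bases 2 to 8 counted from the 5′ end. miR-146a is transcribed after activation of NF-kB. Like miR-146b, it represses IRAK1 and TRAF6, signalling proteins of the Toll-like receptor pathway, which makes miR-146a a negative feedback on that pathway. miR-155 is induced in activated macrophages and microglia and represses SOCS1 and SHIP1, both brakes on cytokine signalling. miR-21 rises in many injured tissues and represses PDCD4, an inhibitor of translation. miR-142 is a miRNA of blood-forming lineages, and miR-223 one of granulocytes and other myeloid cells, so in neuron cultures both also serve as markers of immune cells.

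The 9 sequences are shown because the seeds set which members could share targets, and because near-identical members decide how far their reads can be told apart. They are the RefSeq mature sequences (GRCm38.p6), written 5′ to 3′ with the seed in capitals; 1248 of 1481 features, the 9 members included, matched an entry by name.
miR-21a-5p: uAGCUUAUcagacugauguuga
miR-21a-3p: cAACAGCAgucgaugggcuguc
miR-146a-5p: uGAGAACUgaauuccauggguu
miR-146b-5p: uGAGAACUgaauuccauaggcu
miR-146b-3p: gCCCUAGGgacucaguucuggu
miR-155-5p: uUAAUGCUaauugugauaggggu
miR-142a-3p: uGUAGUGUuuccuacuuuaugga
miR-142a-5p: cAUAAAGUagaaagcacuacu
miR-223-3p: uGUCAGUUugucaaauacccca
The 9 forms carry 8 distinct seeds. Only miR-146a-5p and miR-146b-5p share one among themselves, GAGAACU. Their first 17 bases are identical, and 20 of 22 positions match in all. They differ by G18A and U21C (the base of miR-146a-5p first, positions counted from 1 at the 5′ end). Reads that end before position 18 cannot separate the pair, and how such reads were assigned is not given in the sources used here. Among the features with a sequence, miR-21c was the single further one with the seed of a member, AGCUUAU of miR-21a-5p.

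The 6 precursors lie at separate places in GRCm38. Mir21a (chr11:86584067-86584158, minus strand) falls in an untranslated exon of Vmp1, a gene for an autophagy protein. Mir146 (chr11:43374397-43374461, minus strand), the source of miR-146a, overlaps no other annotated gene. Mir146b (chr19:46342762-46342870, plus strand) lies in an intron of Mfsd13a. Mir155 (chr16:84714140-84714204, plus strand) lies in an exon of its host transcript Mir155hg, and Mir142 (chr11:87756864-87756927, plus strand) in an intron of Mir142hg. Mir223 (chrX:96242817-96242926, plus strand) lies in an exon of F630028O10Rik.

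Depth set which members could be measured. The libraries held 1160582 to 12477032 miRNA reads, with 5884616 to 12477032 in normoxic and 1811589 to 3119212 in OGD knockout libraries. Levels are given in CPM, the reads of a miRNA scaled to a common library size, and the smallest amount taken as detected, 3 reads, came to 0.249 CPM in the deepest and 2.55 CPM in the shallowest library. This floor and the intervals of pooled levels and of their ratios below cover counting error only. Intervals of log2 differences rest on the spread between libraries. Normoxic wild-type replicate 5, the shallowest normoxic library, stood apart from its group on the first principal component, at -0.88 against -14.46 to -13.09 for the other 4, so the wild-type OGD differences and the normoxic genotype differences of the members are also given without it below. miR-210-3p, which is induced by low oxygen, had a mean of 18.3 CPM ± 6.28 in normoxia and 108 ± 34.7 after OGD in wild type (SD, n = 5), and of 26.0 ± 12.6 and 110.2 ± 46.3 in knockout; both differences passed the test.

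Levels of the 9 members spanned more than 4 orders of magnitude on a CPM scale. By mean over the 20 libraries, miR-21a-5p led with 2387 CPM, rank 46 of the 1481 features. miR-146b-5p followed with 474 CPM (rank 114) and miR-146a-5p with 154 CPM (rank 187). These 3 kept that order in 20 of 20 libraries, and miR-146a-5p exceeded the fourth, miR-155-5p, in 20 of 20 as well. miR-155-5p had a mean of 6.05 CPM (rank 466) and miR-146b-3p one of 2.27 CPM (rank 576), with miR-155-5p higher in 19 of 20 libraries. Below these, miR-142a-3p (0.819 CPM), miR-21a-3p (0.707 CPM) and miR-142a-5p (0.411 CPM) overlapped: miR-142a-3p was above miR-21a-3p in 10 of 20 libraries, and miR-21a-3p above miR-142a-5p in 10 of 20. miR-223-3p was last at 0.111 CPM, with 10 reads in all 20 libraries together.

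The members together took 0.271% ± 0.0276 of the reads in normoxic wild-type libraries and 0.328% ± 0.0151 after OGD (SD, n = 5). In knockout libraries they took 0.271% ± 0.00818 and 0.339% ± 0.0325. miR-21a-5p alone made up 78.5% to 79.8% of the members' reads in each group. By reads, the 9 members were thus mostly miR-21a-5p, with the miR-146 5p pair making up nearly all of the rest.

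**Figure D1:**
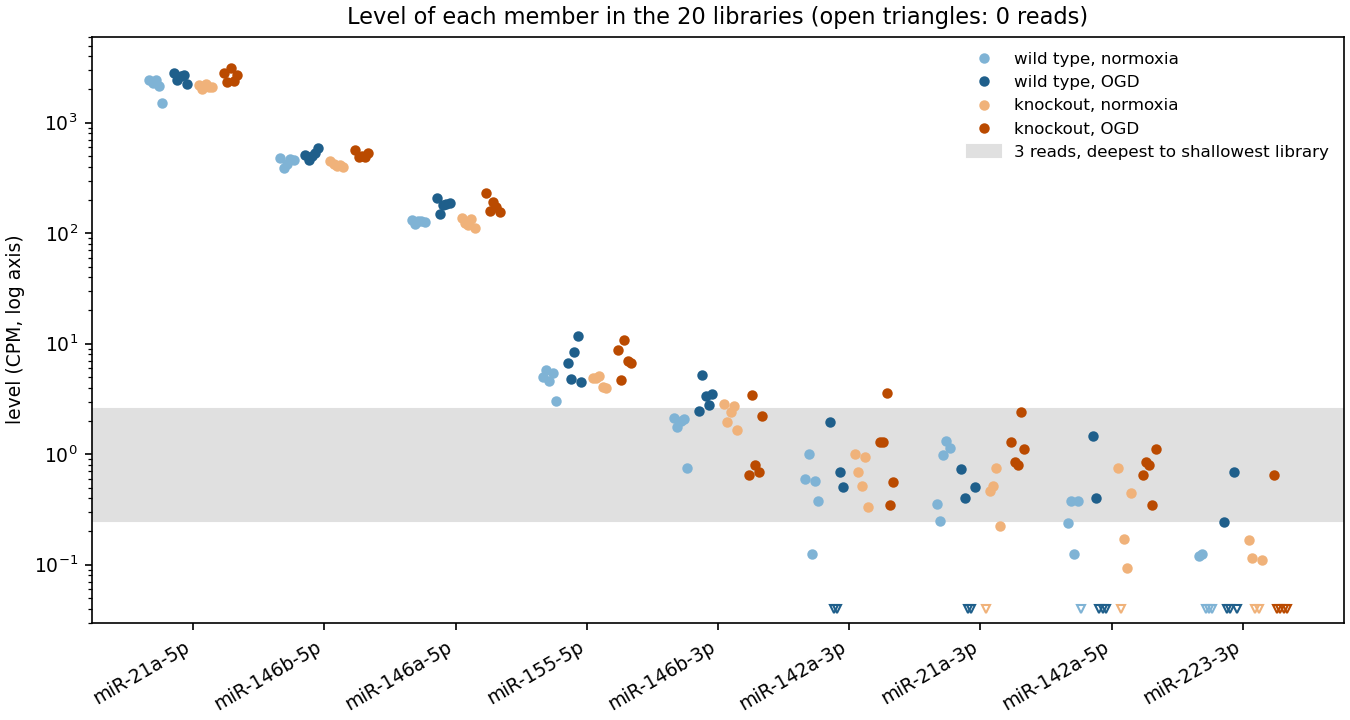
Level of each member in CPM (log axis) in the 20 libraries, one point per library, coloured by group; open triangles mark 0 reads and the grey band spans the CPM value of 3 reads from the deepest to the shallowest library (0.249 to 2.55). The 3 most abundant forms lie far above the band, miR-155-5p lies just above it, and the points of the other 5 reach into it, with several of miR-146b-3p and 1 of miR-142a-3p above it.

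In wild-type neurons, OGD was set against normoxia to ask which miRNAs respond to the insult. On the library-size scale, miR-146a-5p was the 1 of 9 members that passed the test, and it was higher after OGD. Over all features 23.1% were called in this comparison (limma, adjusted p under 0.05), 18.7% higher and 4.4% lower, so 1 of 9 is no larger a share than the background. The members' median difference was 0.24 on the log2 scale, against 0.32 over all features. In knockout neurons, 5 of 9 members were called, all higher, against 24.5% of all features (18.8% higher and 5.75% lower), and the median was 0.49 against 0.24. Among only the features with a mean of at least 1 CPM, 45.7% were called in wild type and 50.6% in knockout (35.3% and 37.7% higher). Groups did not overlap for 2 members in wild type (16% of all features) and for 4 in knockout (19.1%). The 2 OGD comparisons share no libraries.

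These directions depend on the scale, for the members as for other features. Centring each library on the median of its features of at least 10 CPM lowers every OGD difference by 0.57 (wild type) or 0.50 (knockout) on the log2 scale. The median difference of these features was smaller, 0.23 and 0.20. Over all features the median was -0.25 and -0.27 after centring, against -0.03 and -0.02 after quantile normalization. The 341 wild-type calls, 276 higher and 65 lower, became 108 higher and 270 lower after centring (25.6% called) and 141 higher and 191 lower after quantile normalization (22.5%). The 363 knockout calls, 278 higher and 85 lower, became 113 higher and 319 lower (29.2%) and 141 higher and 186 lower (22.1%). Of the 9 members, 2 were called in wild type after centring, both lower (miR-146b-5p and miR-21a-3p), and 1 after quantile normalization, miR-21a-3p, lower. In knockout 1 was called after centring, miR-146b-3p, lower, and 2 after quantile normalization, miR-21a-5p higher and miR-146b-3p lower. On the library-size scale, leaving out 1 library gave 3 to 5 calls of members in knockout. Which scale stands closer to molecules per cell was not tested, since the labels name no spike-in. In such bulk libraries, fewer cells of a type and less RNA per cell cannot be told apart.

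miR-146a-5p, the NF-kB feedback miRNA, separated OGD from normoxic libraries in both genotypes. Wild-type normoxic libraries 1 to 5 held 132, 121, 128, 128 and 125 CPM, and the OGD libraries 207, 148, 181, 184 and 188 CPM. Knockout normoxic libraries held 137, 123, 119, 135 and 111 CPM, and the OGD libraries 232, 159, 191, 172 and 157 CPM. Every OGD library lay above every normoxic one in each genotype. The log2 difference was 0.51 in wild type (SE 0.12, 95% interval 0.26 to 0.75, limma adjusted p = 0.00347) and 0.53 in knockout (SE 0.11, 0.29 to 0.77, adjusted p = 0.00227). It was called in 10 of 10 fits that left out 1 library, in both genotypes, and was 0.50 (adjusted p = 0.00247) in wild type without normoxic replicate 5. Centred on the median, however, the difference was -0.06 (adjusted p = 0.779) in wild type and 0.03 (0.907) in knockout, and after quantile normalization 0.07 (0.709) and 0.15 (0.527).

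miR-146b-5p, which shares its seed and is the more abundant of the pair, was called in knockout and not in wild type. Wild-type libraries held 484, 387, 424, 467 and 456 CPM in normoxia and 511, 458, 501, 530 and 585 CPM after OGD, with 4 of the 5 OGD libraries above all normoxic ones. Knockout libraries held 454, 427, 403, 412 and 400.3 CPM in normoxia and 567, 489, 499.9, 486 and 529.9 CPM after OGD, without overlap. The difference was 0.22 in wild type (SE 0.10, limma adjusted p = 0.143; 0.23 with 0.111 without replicate 5) and 0.29 in knockout (SE 0.08, adjusted p = 0.011). Centred on the median, the sign turned in both, to -0.35 in wild type (adjusted p = 0.024, a call in the lower direction) and -0.21 in knockout (0.102). After quantile normalization miR-146b-5p was not called in either genotype.

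The ratio of these miR-146 forms within a library does not depend on how libraries are scaled. In normoxic wild-type libraries 1 to 5 there were 3.66, 3.20, 3.30, 3.64 and 3.64 reads of miR-146b-5p for each read of miR-146a-5p, and after OGD 2.47, 3.10, 2.77, 2.88 and 3.11. All 5 OGD ratios lay under all 5 normoxic ones, with means of 3.49 ± 0.219 and 2.87 ± 0.263 (SD, n = 5). In knockout libraries the ratios were 3.31, 3.48, 3.40, 3.04 and 3.59 in normoxia (mean 3.36 ± 0.207) and 2.44, 3.07, 2.62, 2.83 and 3.37 after OGD (2.87 ± 0.367), and here the ranges overlapped. These ratios were computed after the levels had been seen and carry no test. In every library most reads with the seed GAGAACU were those of miR-146b-5p.

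**Figure D2:**
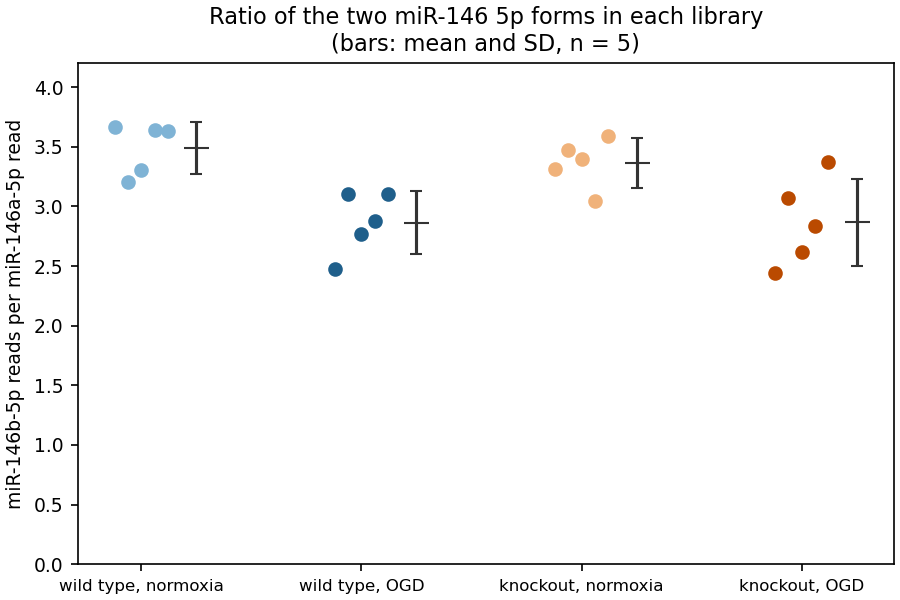
Reads of miR-146b-5p per read of miR-146a-5p in each library, by group, with the mean and SD of 5 libraries beside the points. Wild-type ratios run from 3.20 to 3.66 in normoxia and from 2.47 to 3.11 after OGD; knockout ratios run from 3.04 to 3.59 and from 2.44 to 3.37.

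miR-21a-5p, the injury-associated form, stood at 2425, 2309, 2454, 2129 and 1524 CPM in normoxic wild-type libraries and at 2824, 2431, 2631, 2715 and 2260 CPM after OGD. The low value of 1524 belongs to replicate 5, the library that stood apart. The wild-type difference was 0.26 (SE 0.12, limma adjusted p = 0.137) and was 0.14 (adjusted p = 0.287) without that library. Centred on the median it was -0.30 (0.11), and after quantile normalization 0.17 (0.255). Knockout libraries held 2193, 2014, 2222, 2118 and 2109 CPM in normoxia and 2826, 2341, 3132, 2380 and 2704 CPM after OGD, without overlap. The knockout difference was 0.32 (SE 0.09, 95% interval 0.14 to 0.50, adjusted p = 0.0101) and was called in 10 of 10 fits with 1 library left out. After quantile normalization it was 0.25 (adjusted p = 0.0242), the one knockout call of a higher level among the 9 members that this scaling kept; after centring it was -0.18 (0.171). Reads of miR-21a-5p per read of miR-146a-5p went from 17.1 ± 2.93 to 14.3 ± 1.62 in wild type and from 17.1 ± 1.56 to 14.9 ± 2.02 in knockout (SD, n = 5), differences of the order of the spread between libraries.

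miR-155-5p, the miRNA of activated macrophages and microglia, was scarce but above 3 reads in every library, with 8 to 59 reads. Wild-type libraries held 4.99, 5.75, 4.58, 5.48 and 3.02 CPM in normoxia and 6.63, 4.82, 8.49, 11.8 and 4.52 CPM after OGD. Knockout libraries held 4.91, 4.85, 5.12, 4.02 and 4.01 CPM in normoxia and 8.78, 4.72, 10.8, 6.94 and 6.69 CPM after OGD. In wild type 3 of 5 OGD libraries lay above all normoxic ones and 2 within their range; in knockout 4 lay above and 1, replicate 2, within it. The difference was 0.50 in wild type (SE 0.28, limma adjusted p = 0.219; 0.37 with 0.367 without replicate 5) and 0.63 in knockout (SE 0.22, adjusted p = 0.0458). The knockout call remained in 1 of 10 fits with a library left out (adjusted p from 0.00994 to 0.103), and the difference was 0.13 (0.718) after centring. In wild type, centring gave -0.06 (0.901) and quantile normalization -0.16 (0.760).

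**Figure D3:**
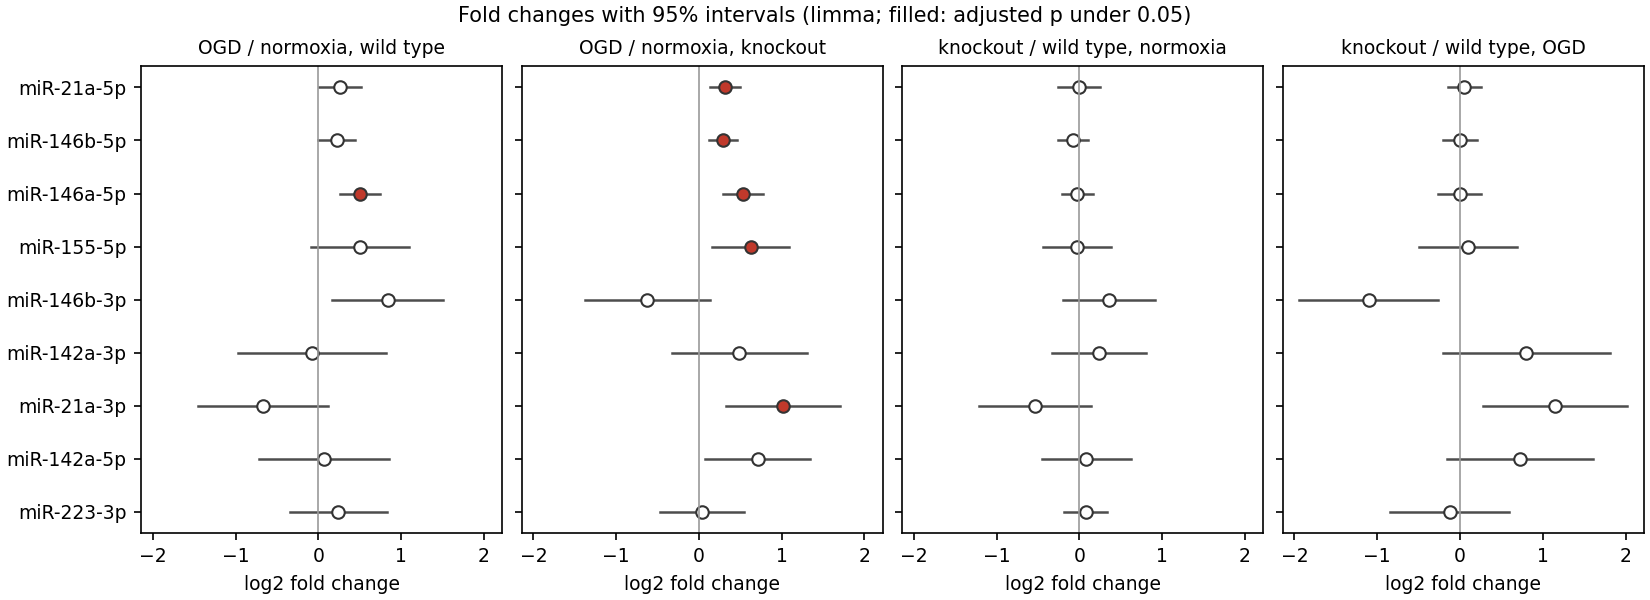
Log2 differences of the 9 members with 95% intervals (limma on log2(CPM + 0.5)), for OGD against normoxia in each genotype and for knockout against wild type in each condition; filled points passed an adjusted p of 0.05. One member is filled for wild-type OGD and 5 for knockout OGD, all higher on this scale (see the plot of 3 scalings for the values after centring), and none between genotypes.

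**Figure D4:**
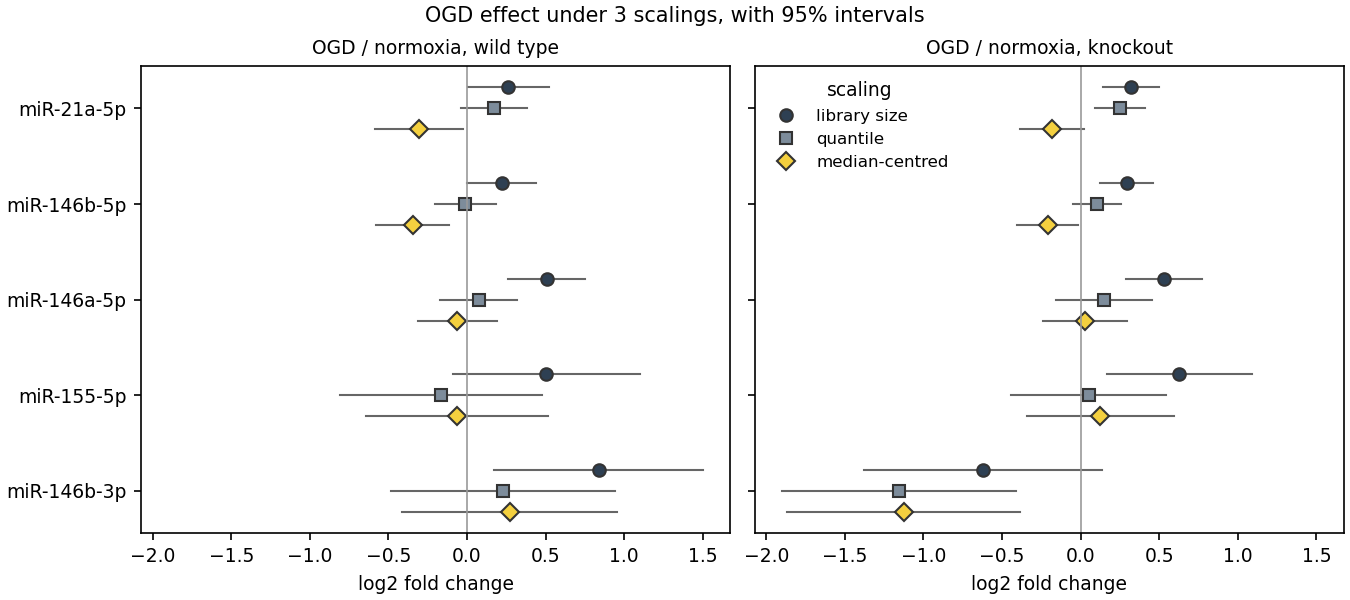
OGD differences (log2) of the 5 most abundant members with 95% intervals under library-size scaling, quantile normalization and centring on the median, by genotype. The points for miR-21a-5p and miR-146b-5p lie above 0 under library-size scaling and below 0 after centring, those for miR-146a-5p move to -0.06 and 0.03, and miR-146b-3p lies below 0 in knockout under all 3.

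The other arm of the miR-146b precursor, miR-146b-3p, is the passenger strand and was at most 34 reads in a library. Its reads were 18, 14, 16, 11 and 2 in normoxic and 10, 13, 4, 4 and 7 in OGD wild-type libraries. They were 34, 17, 14, 29 and 15 in normoxic and 2, 8, 2, 2 and 4 in OGD knockout libraries, of which 3 lay at or under the floor of 3 reads. In CPM, wild type had 1.74 ± 0.570 and 3.47 ± 1.07, without overlap, and knockout 2.31 ± 0.491 and 1.56 ± 1.24 (SD, n = 5). The OGD difference was 0.84 in wild type (SE 0.32, limma adjusted p = 0.0662; 0.64 with adjusted p = 0.136 without replicate 5) and -0.62 in knockout (SE 0.36, adjusted p = 0.234). After centring the knockout difference was -1.12 (adjusted p = 0.0205) and the wild-type one 0.27 (0.602), and after quantile normalization they were -1.16 (0.027) and 0.23 (0.698).

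Pooled over the 5 libraries of a group, there were 234 reads of miR-146b-5p for each read of miR-146b-3p in normoxic wild type, 151 after OGD, 179 in normoxic knockout and 360 in OGD knockout. These ratios rest on 61, 38, 109 and 18 reads of the 3p arm, and the OGD pool was the lower one in wild type and the higher one in knockout. The difference between the genotypes in the OGD effect on miR-146b-3p was -1.46 (95% interval -2.42 to -0.49, limma adjusted p = 0.609) and so did not pass over all features.

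miR-21a-3p, the passenger arm of miR-21a, never exceeded 8 reads and was at or under 3 in 14 of 20 libraries. Its reads were 3, 2, 8, 7 and 3 in normoxic and 3, 1, 0, 0 and 1 in OGD wild-type libraries 1 to 5. They were 0, 4, 3, 8 and 2 in normoxic and 4, 2, 2, 7 and 2 in OGD knockout libraries, sums of 17 in each. The pooled levels were 0.709 CPM (95% Poisson interval 0.450 to 1.06), 0.448 (0.145 to 1.04), 0.368 (0.214 to 0.589) and 1.35 (0.787 to 2.16). Without OGD wild-type replicate 1, which held 3 reads, the pooled level there was 0.282 CPM. Without OGD knockout replicate 4, which held 7 reads, the OGD knockout level was 1.03 CPM. In knockout, the limma difference was 1.02 (SE 0.32, adjusted p = 0.0296), with all OGD libraries at 0.798 to 2.43 CPM and the normoxic ones at 0 to 0.748 CPM. The floor of 3 reads was 0.975 to 1.67 CPM in the OGD knockout libraries, above all 5 normoxic levels, and 3 of the 5 OGD libraries lay at or under it. The pooled ratio of OGD to normoxia was 3.67 (exact counting interval 1.76 to 7.65), and the call was kept in 5 of 10 fits with a library left out. After centring the knockout difference was 0.52 (adjusted p = 0.237) and after quantile normalization 0.58 (0.244). In wild type the difference was -0.67 (adjusted p = 0.219; -0.57 with 0.335 without replicate 5), and it was called lower after centring, at -1.24 (0.0195), and after quantile normalization, at -1.14 (0.0207). On the library-size scale, the difference between genotypes was 1.69 (SE 0.49, limma adjusted p = 0.577). The guide arm exceeded this arm by far, with 235183 against 62 reads over all libraries.

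The miR-142a arms, markers of blood-forming lineages, were detected at the edge of the depth. miR-142a-3p had 0 to 12 reads a library and was at or under the floor in 12 of 20, and miR-142a-5p had 0 to 9 reads and was at or under it in 17 of 20. Pooled, miR-142a-3p stood at 0.555 CPM (18 reads, 95% interval 0.329 to 0.877) in wild-type normoxia and 0.896 (10 reads, 0.429 to 1.65) after OGD, and at 0.735 (34 reads, 0.509 to 1.03) and 1.43 (18 reads, 0.848 to 2.26) in knockout. Single libraries carried much of these sums: 8 of the 10 OGD wild-type reads were in replicate 1, and 9 of the 18 OGD knockout reads in replicate 3. Without those libraries the pooled OGD levels were 0.282 CPM in wild type, below normoxia, and 0.893 CPM in knockout. The limma differences were -0.08 in wild type (adjusted p = 0.911; -0.12 without normoxic replicate 5, and -0.42 with 0.452 without OGD replicate 1) and 0.49 in knockout (0.396; 0.16 with 0.740 without OGD replicate 3). miR-142a-5p had 8, 7, 15 and 9 pooled reads in the same order of groups, of which replicate 1 held 6 of the 7 in OGD wild type and 9 of the 15 in normoxic knockout. Without OGD wild-type replicate 1 its pooled level there was 0.141 CPM in place of 0.627, below the 0.247 CPM of normoxia. The limma differences were 0.07 in wild type (adjusted p = 0.911; -0.06 without normoxic replicate 5, and -0.29 with 0.487 without OGD replicate 1) and 0.71 in knockout (0.0984), the latter passing at 0.90 (0.0407) without normoxic knockout replicate 1. Over all libraries the 3p arm had 80 reads and the 5p arm 39, and the 3p arm was ahead in 14 of 20 libraries.

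miR-223-3p, the myeloid miRNA, was not measurable. It had 0 reads in 12 libraries, 1 or 2 in the other 8 and was at or under the floor in 20 of 20. Its pooled level was 0.0617 CPM (2 reads, 95% interval 0.00747 to 0.223) in wild-type normoxia and 0.179 (2 reads, 0.0217 to 0.647) after OGD, 0.0865 (4 reads, 0.0236 to 0.222) in normoxic knockout and 0.159 (2 reads, 0.0192 to 0.574) in OGD knockout. The depth therefore limits the group level to at most 0.647 CPM, and no change with OGD or genotype was called by limma on log2(CPM + 0.5). There the wild-type OGD difference was 0.24 (adjusted p = 0.565). It was 0.21 without normoxic replicate 5, and ran from 0.02 to 0.33 over the fits that left out 1 library. The voom fit called miR-223-3p in wild type, at 1.59 (adjusted p = 0.0392), on 2 reads in each group.

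**Figure D5:**
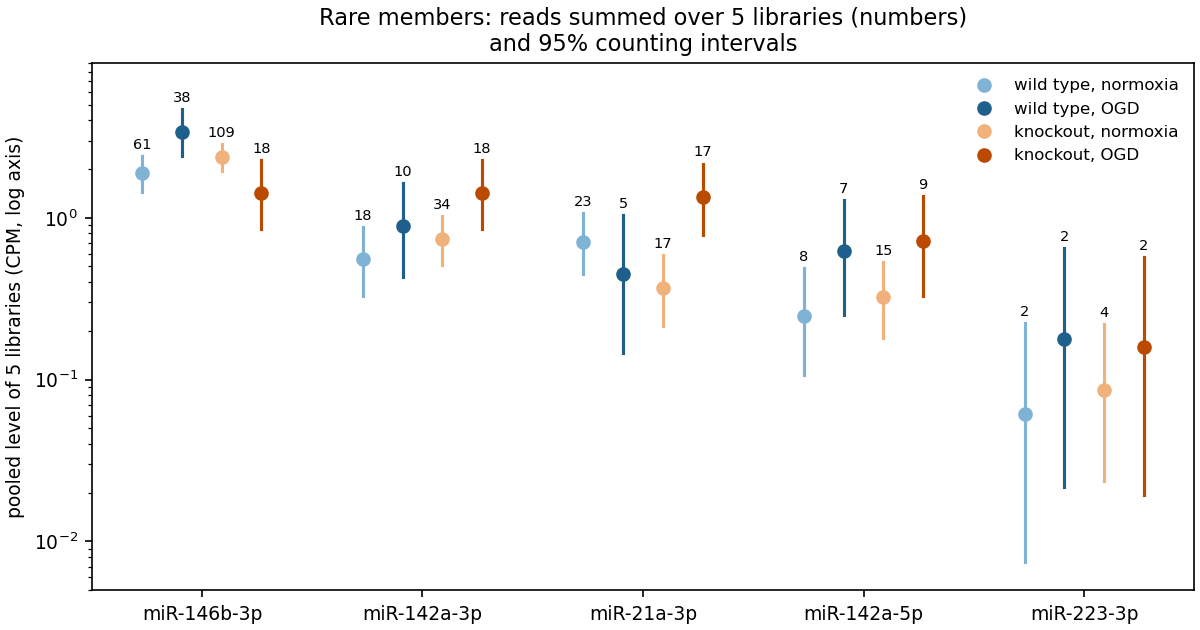
Pooled level (CPM, log axis) of the 5 members that lay at or under 3 reads in at least 1 library, by group, with exact 95% Poisson intervals and the number of reads summed over 5 libraries above each bar. The intervals of miR-223-3p rest on 2 to 4 reads a group, and those of miR-21a-3p in knockout, on 17 reads each, do not overlap.

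Knockout against wild type asked whether loss of ciRS-7 changed these levels, and no member passed in either condition. In normoxia 0 of 9 members and 0% of all features were called (limma, 1481 tested, 47 features and 0 members at an unadjusted p under 0.05), with 0.54% of features and 0 members not overlapping. After OGD 0 of 9 members and 0% of features were called (108 features and 2 members at an unadjusted p under 0.05), with 0.945% of features and 1 member, miR-21a-3p, not overlapping. With voom 0 features were called in either condition, and limma on the deposited values, whose extremes are limited, called 33 and 72 features and 0 members. Leaving out OGD knockout replicate 5 gave 22 calls after OGD, all lower and no member among them. The 3 abundant members allow the closest bounds. For miR-21a-5p the 95% interval ran from -0.26 to 0.25 in normoxia and from -0.14 to 0.25 after OGD on the log2 scale, and without normoxic wild-type replicate 5 the normoxic difference was -0.13 (-0.26 to 0.01). Without that library the normoxic intervals were -0.20 to 0.14 for miR-146a-5p, -0.24 to 0.10 for miR-146b-5p and -0.47 to 0.13 for miR-155-5p. For the rarer members, the normoxic difference without it was 0.16 for miR-146b-3p (0.36 with all libraries), -0.44 for miR-21a-3p (-0.54), 0.19 for miR-142a-3p (0.23), -0.04 for miR-142a-5p (0.08) and 0.04 for miR-223-3p (0.07). With all libraries, the miR-146a-5p intervals were -0.21 to 0.16 and -0.26 to 0.26, and for miR-146b-5p -0.26 to 0.10 and -0.21 to 0.20. For miR-155-5p they were wider, -0.44 to 0.38 and -0.50 to 0.69. The 2 members with an unadjusted p under 0.05 after OGD were miR-146b-3p, at -1.10, and miR-21a-3p, at 1.15, each with a limma adjusted p = 0.474.

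The OGD effect itself was compared between genotypes in 1 fit over 20 libraries, and 0 of 9 members and 0% of features passed (74 features and 2 members, the passenger arms above, at an unadjusted p under 0.05; 1 feature, not a member, passed without OGD wild-type replicate 1). So although 1 member was called in wild type and 5 in knockout, no difference between these responses was shown. For miR-21a-5p the difference of the OGD effects was 0.06 (95% interval -0.26 to 0.37), for miR-146a-5p 0.02 (-0.30 to 0.35), for miR-146b-5p 0.07 and for miR-155-5p 0.12, with limma adjusted p-values of 0.990.

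Other strands of the same precursors, and copies of them at other loci, were also rare. Of the 6 listed, 5 were measured and miR-142b was not analysed here. miR-146a-3p, miR-155-3p and miR-223-5p had at most 2 reads in any library. miR-21b had 2 to 12 reads a library and miR-21c 0 to 7. Both, sequence relatives of miR-21a-5p at other loci, passed in wild type, at 0.97 (SE 0.33, limma adjusted p = 0.0389) and 1.30 (SE 0.35, adjusted p = 0.0111), and 0 of 5 passed in knockout, against 23.1% and 24.5% of all features. In wild type, miR-21b lay at or under 3 reads in 2 of 5 normoxic and 3 of 5 OGD libraries. miR-21c did so in 4 of 5 libraries of each wild-type group. miR-21c had 56 reads over the 20 libraries against 235183 of miR-21a-5p, whose first 15 bases it shares, and how shortened reads of the pair were assigned is not given in the sources used here. After quantile normalization 0 of 5 were called in either genotype, and after centring 1 was called lower in wild type and 0 in knockout, where 22.5% and 22.1% of all features were called after quantile normalization and 25.6% and 29.2% after centring.

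A list of 15 further miRNAs reported in Toll-like receptor and NF-kB responses was set beside the members, of which 14 were measured. In wild type 4 were called higher and 0 lower, and in knockout 3 and 0, while 23.1% and 24.5% of all features were called, 18.7% and 18.8% of all features higher. The list's medians were 0.15 and 0.11, below those of all features, 0.32 and 0.24. Centred, 1 was higher and 8 lower in each genotype, against 7.31% higher and 18.3% lower of all features in wild type and 7.64% and 21.6% in knockout. After quantile normalization 3 were higher and 3 lower in wild type, and 2 and 1 in knockout. Of all features, 9.54% were then called higher and 12.9% lower in wild type, and 9.53% and 12.6% in knockout. miR-147-3p, a miRNA induced by Toll-like receptor ligands in macrophages, was the 1 that was called higher in both genotypes under library-size scaling, centring and quantile normalization. It went from 2.04 CPM ± 0.451 to 8.09 ± 1.52 in wild type and from 2.08 ± 0.594 to 5.74 ± 1.37 in knockout (SD, n = 5), on 5 to 34 reads a library. Its log2 difference was 1.76 (SE 0.25; 1.19 centred) in wild type and 1.28 (SE 0.25; 0.78 centred) in knockout. miR-181c-5p and miR-187-3p were called higher in both genotypes, at 0.77 and 0.87 in wild type and 0.65 and 0.76 in knockout, but not after centring. miR-132-3p, also an activity-regulated neuronal miRNA, was at 0.38 in wild type (limma adjusted p = 0.0462) and 0.37 in knockout (adjusted p = 0.0595), and at -0.19 and -0.13 after centring.

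Markers of other cells were measured beside these results. Of 8 listed blood and immune miRNAs, which include miR-147-3p and the rare miR-223-5p, 7 were present, and their summed level was 471 to 567 CPM in wild-type normoxia and 674 to 814 CPM after OGD, and 515 to 609 and 720.1 to 886 CPM in knockout. These sums were nearly all miR-342-3p (367 CPM to 537 in wild type, 391 to 633 in knockout) and miR-486a-5p (155 to 189 in wild type, 153 to 189 in knockout). On the library-size scale 2 of the 7 were called higher and 0 lower in wild type, miR-147-3p and miR-342-3p (0.55), and 3 and 0 in knockout, miR-147-3p, miR-342-3p (0.69) and miR-486a-5p (0.31). After centring 1 was higher in each genotype, miR-147-3p, and 1, miR-144-3p, was lower in knockout (-0.78, limma adjusted p = 0.0311). After quantile normalization 2 were higher and 0 lower in each genotype, against 9.54% of all features higher in wild type and 9.53% in knockout. Of all features, 18.7% were called higher and 4.4% lower in wild type and 18.8% and 5.75% in knockout on the library-size scale, shares against which the counts of this short list and of those that follow are to be read. The defining lymphocyte marker miR-150-5p had at most 4 reads in a library, the erythroid miR-144-3p at most 5 and miR-451a at most 13. Neuronal markers, 5 of 5 present, summed to 288192 to 386492 CPM, mostly miR-9-5p. On the library-size scale 2 were called higher and 1 lower after OGD in wild type, and 3 and 1 in knockout. miR-124-3p went from 3392 to 5628 CPM and miR-138-5p from 233 to 454 CPM in wild type, and miR-128-3p from 60839 to 40381 CPM; after centring 1 was called higher, miR-138-5p, and 2 lower, miR-128-3p and miR-9-5p (-0.59 in wild type and -0.43 in knockout), in each genotype, and miR-124-3p was not called. Endothelial markers (2 of 2) summed to 269 to 393 CPM, those of smooth muscle and mesenchyme (5 of 5) to 65.0 to 141 CPM and those of oligodendrocytes (2 of 2) to 5.29 to 14.0 CPM. Of these, 1 endothelial and 1 mesenchymal marker were called higher after OGD in wild type and 1 oligodendrocyte marker in knockout; they were miR-126a-5p (0.57, limma adjusted p = 0.0377), miR-214-3p (1.33, 0.0086) and miR-338-3p (0.75, 0.0161). None of the 3 was called higher after centring, where the endothelial miR-126a-3p was called lower in both genotypes, at -0.63 in each (adjusted p = 0.000315 in wild type and 0.000469 in knockout). The wild-type call of miR-214-3p rested on 6 normoxic and 16 OGD reads. It lay at or under 3 reads in 5 of 5 normoxic and 3 of 5 OGD libraries. After quantile normalization the smooth-muscle miR-143-3p was called lower in wild type, at -0.50 (adjusted p = 0.0466). The part of other cells in the levels of the members was not tested.

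The most similar patterns were sought for the 3 abundant members, among 306 features whose log2(CPM + 0.5) averaged 5 or more. Over the 20 libraries, miR-21a-5p was most like miR-384-3p (Pearson r = 0.91, and 0.85 after each group's mean was taken away), miR-362-3p (0.89) and miR-93-5p (0.89). miR-146a-5p was most like miR-23a-3p (0.93, and 0.69 within groups), miR-1839-3p (0.92) and miR-154-5p (0.91). miR-146b-5p was most like miR-320-3p (0.88), miR-146a-5p (0.86, and 0.59 within groups) and miR-23b-3p (0.85). miR-21a-5p was less like the miR-146 forms, with r = 0.70 to miR-146a-5p (0.32 within groups) and 0.50 to miR-146b-5p (-0.07 within groups). These correlations are descriptions over 20 libraries that differ in depth and in treatment.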

How the data were processed

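Small RNA was sequenced in 20 libraries, 5 in each of 4 groups, prepared with a NEBNext small RNA kit per the labels' protocols; the build is mm10 per the submitters' processing notes, and the aligner, counter and miRBase release are not given in the sources used here. The authors deposited 6 tables, 1 per pair of groups, whose values are a score: they are named as log CPM but reach 35.8 to 37.3, while no log2 CPM can pass 19.9. From the values, each deposited score was reads (a whole number) times a library factor, raised to 1 power per table (0.106 to 0.118), with the extremes of each feature and group then limited at the quantiles 0.16 and 0.84. Undoing both steps gave whole reads for 100% of values (within 0.05), equal in all tables that share a library (88520 comparisons, 0 differences); both this and the fit were tested on simulated data.

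Differences are from limma 3.58.1 in R 4.3.3 (lmFit, eBayes with a mean-variance trend) on log2(CPM + 0.5), a scale that understates changes of rare features, with the authors' library factors (0.923 to 1.08 times the total), two-sided, adjusted by Benjamini-Hochberg across every feature in the table, threshold 0.05. Pooled levels carry exact Poisson intervals (95%), and ratios of them exact binomial ones. Between 2 replicates of a group, chi-square per degree of freedom was at least 16.5, so no library matched another within sampling noise.

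The 9 members are named throughout, called features of each list may be named, and the 3 features with the highest r to each abundant member. Members and lists were chosen with earlier results of these data known. The alternatives tried were pseudocounts of 0.25 and 1 CPM, a filter at a mean of 1 CPM, centring on the median, quantile normalization, thinning to 1160582 reads, voom, the deposited values, a replicate block, and leaving out each library.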

Additional observations from a re-analysis of the deposited data

Results flagged for a closer look

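In 3 of 40 groups of 5 libraries tested, 1 library lay far from the other 4 by Dixon's criterion; chance alone gives about 1 in 20. miR-146b-3p was lowest in normoxic wild-type replicate 5, at 0.756 CPM (2 reads) against 1.75 to 2.14 CPM in the other 4. miR-142a-5p was highest in OGD wild-type replicate 1, at 1.47 CPM (6 reads), where the next library had 0.402 CPM. miR-223-3p was highest in OGD knockout replicate 1, at 0.650 CPM (2 reads), with 0 reads in the other 4, where any library with a read would be flagged.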

How the results depend on the processing

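The OGD calls depended on the processing, and the cause was not tested. The members called in wild type (1) became 2 with the filter, 2 centred, 3 with voom, 4 on the deposited values, 2 with the replicate block and 3 with the block and centring, while the share of all features called went from 23.1% to 45.7%, 25.6%, 46.9%, 32.3%, 26.3% and 28.3%. In knockout (5) they became 1 centred, 2 after quantile normalization and 2 with the block and centring (29.2%, 22.1% and 31.6% of all features against 24.5%), and 3 to 5 with a library left out (19.8% to 25.2%); leaving out normoxic knockout replicate 2 or 5, or OGD knockout replicate 1 or 4, gave 3. Centring reversed wild-type miR-146a-5p (-0.061, with the replicate block too, adjusted p = 0.678) and miR-146b-5p (-0.35, 0.00315 with the block), and knockout miR-21a-5p (-0.18, 0.0785 with the block) and miR-146b-5p (-0.21, 0.0497 with the block); wild-type miR-21a-5p was -0.30 (0.00539) with both. The replicate numbers were not treated as pairs, since the labels give them no meaning and not every pair correlated above 0.1 (4 of 5 did in each OGD comparison, from -0.17 to 0.66 in wild type and -0.21 to 0.49 in knockout; 7 of 10 and 5 of 10 libraries correlated best with their own number); the block alone added miR-21a-5p in wild type (adjusted p = 0.0262) and gave 389 and 403 calls over all features. Over all features, voom made 693 and 784 calls against 341 and 363, thinning 221 in knockout, and the deposited values, whose extremes are limited, 33 (normoxia) and 72 (OGD) between genotypes against 0. The log2 ratio of miR-21a-5p to miR-21a-3p was 11.9 on summed reads against a mean of 11.1 over libraries. No member was called between genotypes or in the interaction under any alternative run; the interaction could not be run on the deposited values. Depth limits the 5 rare members, above all miR-223-3p.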
